A study of Arabidopsis thaliana with 9 samples.

Results

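The Polycomb repressive complex genes described here are 10 Arabidopsis loci chosen by locus identifier from the 33278 loci of a deposited expression table, with earlier results of these data known. Of these, 6 encode subunits of Polycomb repressive complex 2 (PRC2): CLF, SWN, EMF2, VRN2, FIE and MSI1. The other 4 encode proteins of Polycomb repressive complex 1 (PRC1): LHP1, RING1A, BMI1A and BMI1B. All 10 loci were found in the table, and all 10 passed the filter on low values, with more than 1 FPKM in each of the 4 libraries. FPKM counts fragments per length of transcript and per amount of mapped sequence, so levels of different genes can be set side by side. The program that computed FPKM is not given, so such comparisons between genes are approximate.

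The libraries are RNA-seq of whole seedlings at 6 days, with 2 libraries labelled as hd2b hd2c double mutants and 2 of wild-type Columbia-0. Per the labels' protocols, all plants grew on soil at 21 degrees in continuous light. The labels name no allele. They are silent on whether a genotype's libraries came from plants grown apart, so p-values reflect only the spread between these libraries, which may be technical. HD2B and HD2C are plant-specific histone deacetylases of the nucleolus and nucleus, and the comparison asks how transcript levels differ when both genes are mutated. The series also holds 5 leaf samples of chromatin and RNA immunoprecipitation, which are not analysed here.

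Polycomb proteins keep developmental genes silent through chromatin. PRC2 places methyl groups on lysine 27 of histone H3 (the mark H3K27me3), and PRC1 adds ubiquitin to histone H2A and binds marked chromatin. In Arabidopsis seedlings this system holds flowering, floral organ, meristem and seed genes off in leaves and roots, and plants that lack both CLF and SWN dedifferentiate after germination.

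HD2B matched the label of the mutant libraries and HD2C did not. HD2B (AT5G22650) stood at 24.2 and 24.3 FPKM in the labelled hd2b hd2c libraries, against 138 and 191 FPKM in wild type. It fell 6.76-fold (log2 change −2.69, SE 0.17, limma adjusted p = 3.62e-04). For HD2C (AT5G03740) the levels were 74.7 and 55.8 FPKM in the labelled hd2b hd2c libraries, against 56.1 and 63.9 FPKM in wild type (log2 change 0.11, SE 0.16, adjusted p = 0.791). An FPKM value is summed along the gene and no label places the mutation, so it does not tell whether the transcript is intact. Since HD2C transcript was no lower, the term labelled hd2b hd2c is used below, and each direction given rests on that label. FPKM sums were 956002 and 1105981 in the labelled hd2b hd2c libraries and 988524 and 992451 in wild type. The table holds no fragment counts, so the sequencing depth behind each value is unknown.

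No Polycomb gene passed the test. Of the 10 genes, 0 were called higher and 0 lower by limma at an adjusted p of 0.05 over the 19917 tested loci, where 0.608% of all tested loci were called higher and 0.552% lower. At shares this low, 0 of 10 does not set the Polycomb genes apart from other loci. At an unadjusted p under 0.05 there was 1 of the 10, SWN, against 17.2% of all tested loci. The groups did not overlap in 4 of the 10 genes, against 49.4% of all tested loci. Changes ran from a log2 of −0.33 for SWN to 0.19 for RING1A, with 5 genes above 0 and 5 below. Their median was −0.05, beside 0.00 over all tested loci. The lowest bound of any gene's 95% interval was a log2 change of −0.60, and the highest was 0.55. On the log2(FPKM + 1) scale used for testing, these bounds are 1.51-fold lower and 1.47-fold higher. Larger differences on that scale lay outside the interval of every gene. The bounds are extremes over the 10 genes, and the limits of each gene are those of its own interval, given below. With 2 libraries per genotype, differences inside a gene's own interval could not be resolved.

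**Figure D1:**
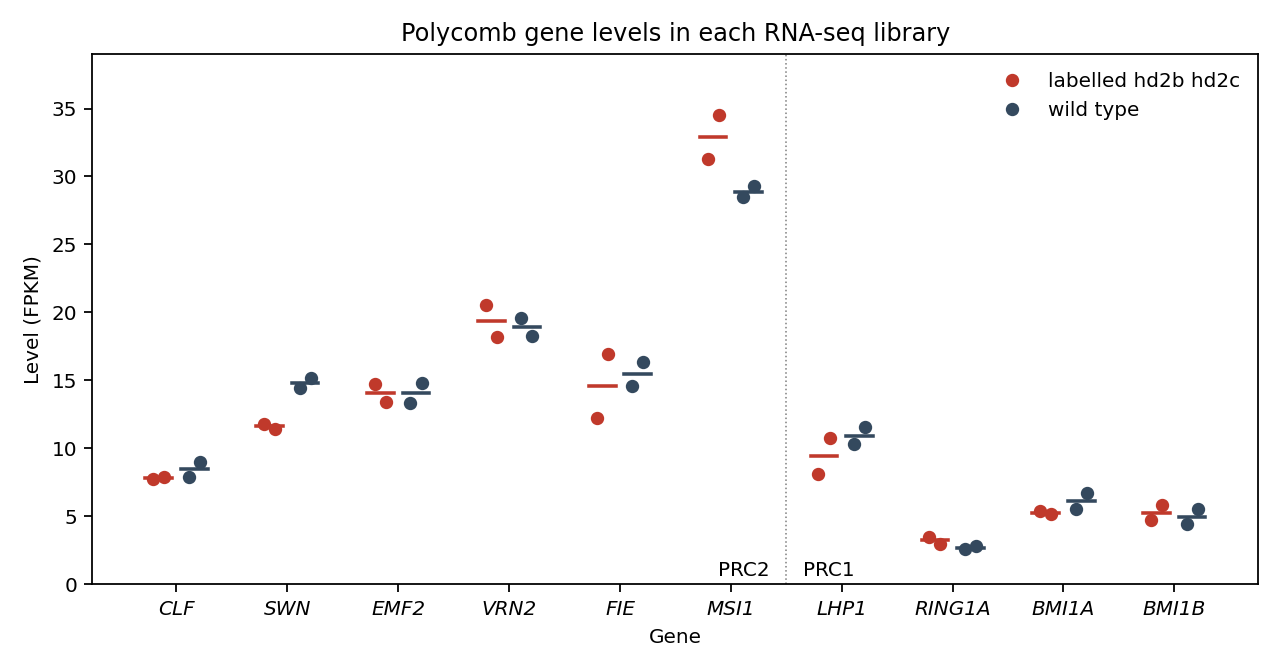
Level in FPKM (vertical axis, linear from 0) of each of the 10 Polycomb genes in the 4 seedling libraries. Each point is 1 library and each bar the mean of the 2 libraries of a genotype, with labelled hd2b hd2c left of wild type. MSI1 is the highest gene and RING1A the lowest in both genotypes, and SWN is the gene whose labelled hd2b hd2c libraries lie farthest below wild type for their spread.

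CLF and SWN encode the histone methyltransferases of PRC2, relatives of fly Enhancer of zeste that act in seedlings and later growth. SWN (AT4G02020) had 11.8 and 11.4 FPKM in the labelled hd2b hd2c libraries, against 14.5 and 15.2 FPKM in wild type. Both labelled hd2b hd2c libraries lay below both wild-type libraries. Group means were 11.6 ± 0.285 FPKM in labelled hd2b hd2c and 14.8 ± 0.523 FPKM in wild type (SD, n = 2 each), a ratio of 0.783. The log2 change of SWN was −0.33 (SE 0.12, 95% interval −0.60 to −0.06), and its adjusted p of 0.221 in limma did not pass. It was −0.27 for the pair of libraries with number 1 and −0.38 for the pair with number 2. CLF (AT2G23380) had 7.71 and 7.93 FPKM in the labelled hd2b hd2c libraries, against 7.88 and 9.03 FPKM in wild type. The groups overlapped, since labelled hd2b hd2c library 2 lay above wild-type library 1. The log2 change of CLF was −0.10 (SE 0.13, 95% interval −0.40 to 0.21, limma adjusted p = 0.762).

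EMF2 and VRN2 encode alternative zinc finger subunits of PRC2, relatives of fly Su(z)12. EMF2 keeps seedlings vegetative, and VRN2 is needed for the stable silencing of FLC after cold. EMF2 (AT5G51230) had 14.8 and 13.4 FPKM in the labelled hd2b hd2c libraries, against 13.3 and 14.8 FPKM in wild type. The ranges of the genotypes lay almost on top of each other, and the log2 change was 0.00 (SE 0.12, 95% interval −0.29 to 0.29, limma adjusted p = 0.997). VRN2 (AT4G16845) had 20.6 and 18.2 FPKM in the labelled hd2b hd2c libraries, against 19.6 and 18.3 FPKM in wild type. The wild-type range lay inside that of the labelled hd2b hd2c libraries, and the log2 change was 0.03 (SE 0.12, 95% interval −0.25 to 0.31, limma adjusted p = 0.935). VRN2 protein is known to be unstable in air, which a transcript level does not show.

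FIE and MSI1 encode the WD40-repeat proteins that the PRC2 forms of Arabidopsis share. FIE corresponds to fly Extra sex combs, and MSI1 to fly p55. FIE (AT3G20740) had 12.3 and 16.9 FPKM in the labelled hd2b hd2c libraries, against 14.6 and 16.3 FPKM in wild type. The labelled hd2b hd2c libraries spread around the wild-type range, and the log2 change was −0.09 (SE 0.16, 95% interval −0.47 to 0.28, limma adjusted p = 0.819). MSI1 (AT5G58230), which also serves in chromatin assembly factor 1, had 31.3 and 34.5 FPKM in the labelled hd2b hd2c libraries, against 28.5 and 29.3 FPKM in wild type. Both labelled hd2b hd2c libraries lay above both wild-type libraries. The log2 change of MSI1 was 0.18 (SE 0.12, 95% interval −0.09 to 0.45) and did not pass (limma adjusted p = 0.475). It was 0.13 for the pair with number 1 and 0.23 for the pair with number 2, and 0.11 without labelled hd2b hd2c library 2.

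LHP1 (TFL2 in the reference gene table, AT5G17690) encodes the chromodomain protein that binds H3K27me3, and plants without it flower early. It had 8.10 and 10.7 FPKM in the labelled hd2b hd2c libraries, against 10.3 and 11.6 FPKM in wild type. Labelled hd2b hd2c library 1 was the lowest of the 4, and library 2 lay within the wild-type range. The log2 change of LHP1 was −0.21 (SE 0.16, 95% interval −0.57 to 0.15, limma adjusted p = 0.547). It was −0.02 without labelled hd2b hd2c library 1, −0.39 without labelled hd2b hd2c library 2 and −0.13 without wild-type library 2, so its size rests on single libraries.

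RING1A, BMI1A and BMI1B encode the RING finger proteins that make up the ubiquitin ligase of PRC1. RING1A (AT5G44280) had 3.50 and 2.99 FPKM in the labelled hd2b hd2c libraries, against 2.59 and 2.83 FPKM in wild type. The groups did not overlap, but they were separated by less than the spread within labelled hd2b hd2c. The log2 change of RING1A was 0.19 (SE 0.16, 95% interval −0.17 to 0.55, limma adjusted p = 0.581), and it was 0.10 without labelled hd2b hd2c library 1. BMI1A (DRIP2 in the reference, AT2G30580) and BMI1B (DRIP1, AT1G06770) are also known as ligases that mark the drought regulator DREB2A for degradation. BMI1A had 5.38 and 5.16 FPKM in the labelled hd2b hd2c libraries, against 5.52 and 6.71 FPKM in wild type. Both labelled hd2b hd2c libraries were lower, by a margin smaller than the difference between the wild-type libraries (log2 change −0.18, SE 0.15, 95% interval −0.52 to 0.16, limma adjusted p = 0.583). The change of BMI1A was −0.30 without wild-type library 1 and −0.06 without wild-type library 2. BMI1B had 4.74 and 5.81 FPKM in the labelled hd2b hd2c libraries, against 4.42 and 5.51 FPKM in wild type. In both genotypes library 2 was the higher, and the groups overlapped (log2 change 0.07, SE 0.16, 95% interval −0.30 to 0.45, limma adjusted p = 0.867).

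**Figure D2:**
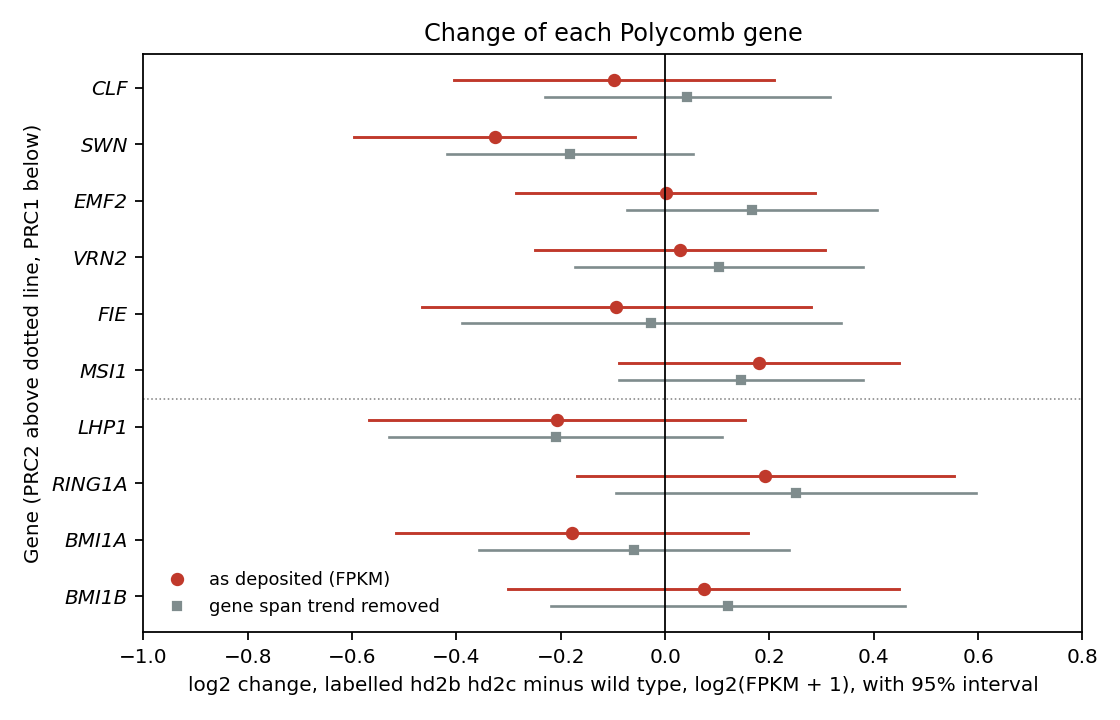
Log2 change of each Polycomb gene, labelled hd2b hd2c minus wild type, in log2(FPKM + 1) units (horizontal axis), with its 95% interval from limma. Red circles use the deposited FPKM and grey squares the same fit with the trend on gene span removed. Among the red intervals that of SWN, −0.60 to −0.06, does not reach 0, and its grey interval does.

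The PRC2 genes stood at higher levels than most PRC1 genes. Averaged over the 4 libraries, the order of levels was MSI1 (30.9 FPKM), VRN2 (19.2 FPKM), FIE (15.0 FPKM), EMF2 (14.1 FPKM), SWN (13.2 FPKM), LHP1 (10.2 FPKM), CLF (8.14 FPKM), BMI1A (5.69 FPKM), BMI1B (5.12 FPKM) and RING1A (2.98 FPKM). Over the 4 libraries, neighbours from FIE down to CLF overlapped in range, and so did BMI1A and BMI1B. MSI1 and VRN2, VRN2 and FIE, CLF and BMI1A, and BMI1B and RING1A did not overlap. MSI1 lay at the percentile 75.4 of the mean level of tested loci, and RING1A at 14.0. Summed over the 6 PRC2 genes the level was 98.5 and 102 FPKM in the labelled hd2b hd2c libraries, against 98.4 and 103 FPKM in wild type. Summed over the 4 PRC1 genes it was 21.7 and 24.7 FPKM in the labelled hd2b hd2c libraries, against 22.8 and 26.6 FPKM in wild type. Both sums overlapped between genotypes.

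CLF was the minor transcript of the methyltransferase pair in every library. Its share of the CLF and SWN sum was 39.5% and 41.0% in the labelled hd2b hd2c libraries, against 35.3% and 37.2% in wild type. The shares did not overlap, with means of 40.2% ± 1.06 in labelled hd2b hd2c and 36.3% ± 1.41 in wild type (SD, n = 2 each), a difference of 3.97 percentage points. An exact two-sided permutation test over the libraries gave p = 0.333, which is the smallest value that 2 against 2 allows. The summed FPKM of CLF and SWN was 19.5 and 19.4 in the labelled hd2b hd2c libraries, against 22.3 and 24.2 in wild type. EMF2 made up 41.8% and 42.4% of the EMF2 and VRN2 sum in the labelled hd2b hd2c libraries, against 40.4% and 44.8% in wild type. The wild-type shares bracketed the others, and the difference of −0.497 percentage points had an exact two-sided permutation p of 1.0. BMI1A made up 53.2% and 47.0% of the BMI1A and BMI1B sum in the labelled hd2b hd2c libraries, against 55.6% and 54.9% in wild type. The wild-type shares lay close together and above both others, with a difference of −5.13 percentage points (exact two-sided permutation p = 0.333). This difference was −8.21 percentage points without labelled hd2b hd2c library 1 and −2.05 without labelled hd2b hd2c library 2. Over these 3 pairs no p could pass, so the shares are descriptions.

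**Figure D3:**
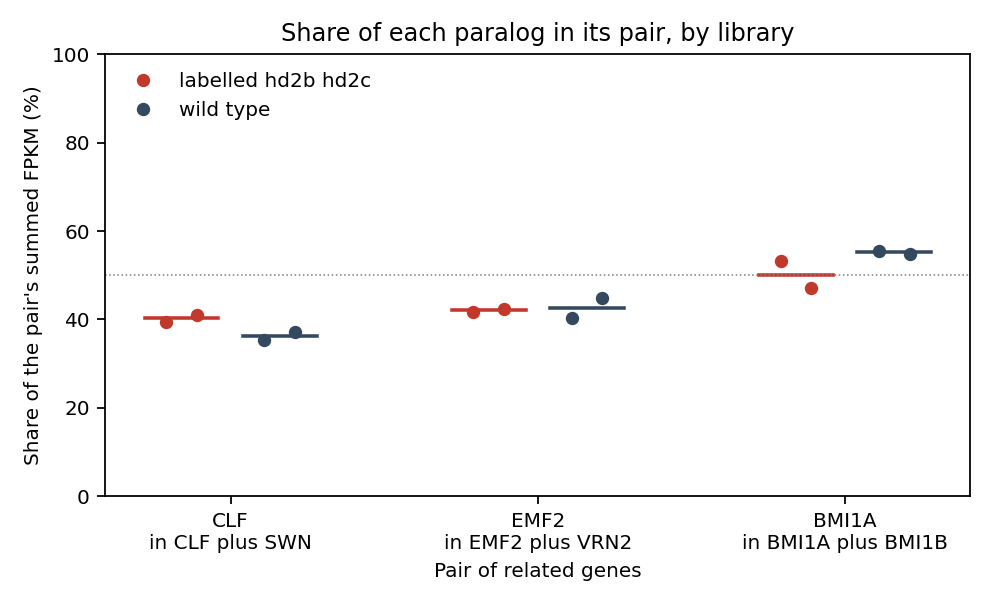
Share, in percent of the summed FPKM of a pair, taken by CLF beside SWN, EMF2 beside VRN2 and BMI1A beside BMI1B (vertical axis from 0 to 100). Points are libraries and bars are means of 2, with labelled hd2b hd2c left of wild type. CLF lies between 35.3% and 41.0% in all 4 libraries, and BMI1A lies on either side of 50% in labelled hd2b hd2c only.

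In this table the longer a gene's span the lower was its change, and several Polycomb genes are long. In the decile of tested loci with the longest span (median 5689 bp) the median log2 change was −0.17 and 81.7% of loci were below 0, whereas in the shortest decile (median 849 bp) the median was 0.15. CLF (5295 bp), SWN (5408 bp), EMF2 (6001 bp) and BMI1A (4751 bp) belong to the longest decile, and 3 of these 4 were below 0. With the trend removed, the log2 change of SWN was −0.18 (limma adjusted p = 0.413), that of BMI1A −0.06 and that of CLF 0.04, which reverses its sign. The change of EMF2 moved from 0.00 to 0.17 (limma adjusted p = 0.459). The median over the 10 genes was then 0.07, with 6 above 0. BMI1B, at 3218 bp, is shorter than BMI1A. The shares and sums of paralog pairs were not taken with the trend removed, so they carry it. What produced the trend was not tested.

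**Figure D4:**
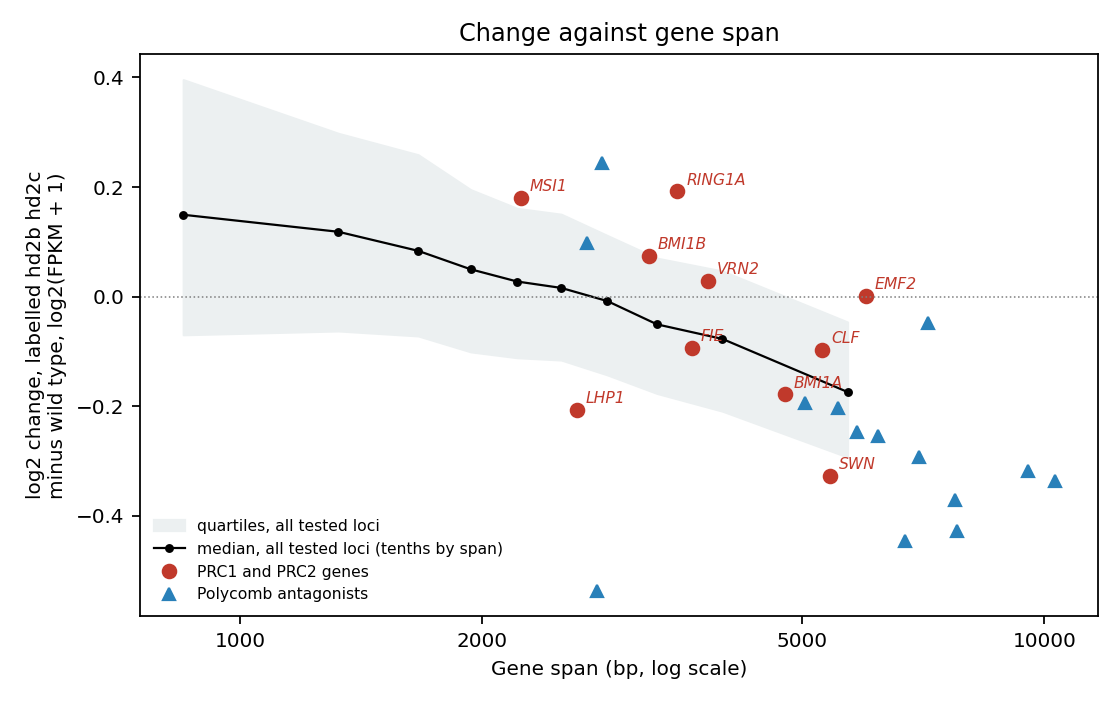
Log2 change on the log2(FPKM + 1) scale (vertical axis) against gene span in bp (horizontal axis, log scale). The black line joins the medians of deciles of all tested loci by span and the grey band their quartiles, red circles are the 10 Polycomb genes and blue triangles the tested Polycomb antagonists. The median falls with span, and 11 of the 14 antagonists lie in the longest decile, all 11 below 0.

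None of the other tested subunits and partners of the complexes passed, beside 0.608% of all tested loci called higher and 0.552% lower. At shares this low, 0 called in this or any list below does not set its genes apart from other loci. Of 6 further PRC2 subunits and MSI relatives, MEA and FIS2, the endosperm forms of the methyltransferase and zinc finger subunits, reached at most 0.107 FPKM in any library and were not tested. The 4 tested relatives of MSI1 (MSI2, MSI3, MSI4 and MSI5) lay above 0, 0 were called, and the median log2 change was 0.12. Among them MSI4 (FVE), which acts in the autonomous flowering pathway, had 44.8 and 47.3 FPKM in the labelled hd2b hd2c libraries, against 41.1 and 43.5 FPKM in wild type (log2 change 0.12, limma adjusted p = 0.654). RING1B, the paralog of RING1A, had 5.03 and 5.12 FPKM in the labelled hd2b hd2c libraries, against 3.98 and 5.87 FPKM in wild type, so the wild-type range enclosed the others (log2 change 0.05, adjusted p = 0.917). EMF1, a plant-specific PRC1 protein, had a log2 change of −0.17 (adjusted p = 0.597). It spans 5758 bp, and its change was −0.02 with the span trend removed and −0.08 without labelled hd2b hd2c library 2 or wild-type library 2. BMI1C (AT3G23060) did not exceed 0.381 FPKM.

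The VEL proteins carry PHD fingers and join PRC2 in the cold response. VIN3, the member induced by cold, was at or below 0.12 FPKM in every library together with VEL2 and VEL3. VRN5, VEL1 and the DNA-binding protein VRN1 were tested, and their log2 changes were 0.04, 0.10 and 0.11 with 0 called. Of 9 readers of H3K27me3 or of H3K4me3, the mark of active promoters, 7 lay above 0, 0 were called, and the median log2 change was 0.14. AL2, an Alfin-like PHD protein, had the largest change of them. It stood at 65.7 and 62.3 FPKM in the labelled hd2b hd2c libraries, against 49.9 and 52.6 FPKM in wild type (log2 change 0.31, SE 0.12, limma adjusted p = 0.241).

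The DNA-binding proteins that bring Polycomb complexes to their targets did not pass the test either. Of 10 tested, 0 were called, 5 were above 0, and the median log2 change was 0.01, or −0.04 with the span trend removed. The B3-domain repressors VAL1 (HSI2) and VAL2 (HSL1), which silence FLC and seed genes, had log2 changes of −0.21 (adjusted p = 0.525) and −0.21 (adjusted p = 0.494). Both genes lie in the longest decile, and with the span trend removed their changes were −0.09 and −0.04. Without wild-type library 2 the change was −0.05 for VAL1 and −0.07 for VAL2. Of 11 accessory proteins 0 were called and 6 were below 0, with a median of −0.10. With the span trend removed the sign of that median turned, to 0.06 with 7 above 0. UBP13, a ubiquitin protease, had the smallest p among them, at 24.2 and 23.6 FPKM in the labelled hd2b hd2c libraries, against 28.1 and 29.9 FPKM in wild type (log2 change −0.27, limma adjusted p = 0.280). UBP13 is long, at 9840 bp, and its change was −0.02 (adjusted p = 0.965) with the span trend removed.

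Genes listed as opposing Polycomb silencing were mostly lower without passing the test, and most of them are long. The list holds demethylases of H3K27me3, methyltransferases of the Trithorax type, ULT1 and ULT2, and the remodeller PKL. Of 14 tested, 12 were below 0, with a median log2 change of −0.27 and 0 called, and the groups did not overlap in 11, against the 49.4% of all tested loci. Of the 14, 11 belong to the longest decile by span, in which 81.7% of all tested loci were below 0. The median of these 11 with the trend removed was −0.08, against −0.29 before. JMJ30 (JMJD5), a demethylase gene under clock control, is shorter, at 2776 bp. It had 9.65 and 8.15 FPKM in the labelled hd2b hd2c libraries, against 13.5 and 13.1 FPKM in wild type. Both labelled hd2b hd2c libraries were lower, by more than the spread within either genotype (log2 change −0.54, SE 0.13, limma adjusted p = 0.116, and −0.52 with the span trend removed). ATX4 (SDG16) and ATX2, which encode H3K4 methyltransferases, had log2 changes of −0.45 (adjusted p = 0.183) and −0.43 (adjusted p = 0.210), and with the trend removed −0.26 and −0.21. REF6 and ELF6, the demethylases known best from flowering and named after their values were seen, had log2 changes of −0.20 and −0.25, and −0.05 and −0.09 with the trend removed.

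**Figure D5:**
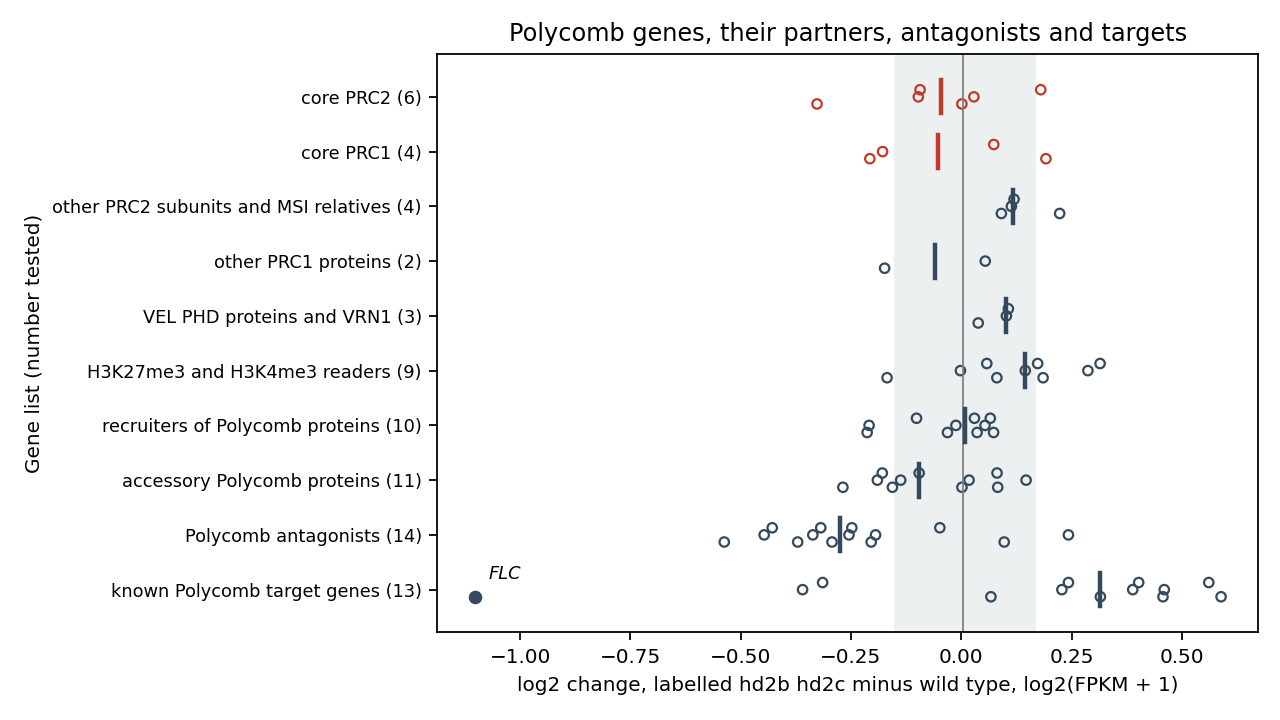
Log2 change on the log2(FPKM + 1) scale (horizontal axis) of every tested gene in the 10 Polycomb genes (red, shown as core PRC2 and core PRC1) and in 8 lists of related genes (dark blue). Filled points passed an adjusted p of 0.05 in limma, open points did not, upright bars are list medians, and the grey band holds the middle quartiles of all tested loci. FLC, at −1.10, is the single filled point.

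Of 32 genes known as Polycomb targets, 19 did not pass the filter on low values, and these reached at most 1.48 FPKM in any library. They include the floral organ genes AG, AP3 and SHP1, the meristem gene WUS and the seed regulators LEC1, LEC2, FUS3 and ABI3. Of the 19, 5 had both labelled hd2b hd2c libraries above both wild-type libraries, 3 had both below, and the groups overlapped in 11. Over all tested loci the groups did not overlap in 49.4%, and no such share was taken for loci below the filter. Whether these counts differ from those of other loci at such levels is therefore not known. AG had 0.101 and 0.032 FPKM in the labelled hd2b hd2c libraries, against 0.121 and 0.105 FPKM in wild type. ABI3 had 0.306 and 0.175 FPKM in the labelled hd2b hd2c libraries, against 0.0213 and 0.0833 FPKM in wild type. At levels this low no test was made. The other 13 targets were tested, of which 0 were called higher and 1 lower, beside 0.608% and 0.552% of all tested loci. Their median log2 change was 0.32. The median was 0.34 for the pair of libraries with number 1 and 0.12 for the pair with number 2. With the span trend removed, the median over all 4 libraries was 0.45. Of the 13, 10 were above 0, against 50.65% of all tested loci, which describes the expressed part of the list. Below 0 were FLC, MAF4 (log2 change −0.36) and PI (−0.31). PI reached the filter in the wild-type libraries alone and so had to be lower.

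The target called lower was FLC (AT5G10140), the MADS-box repressor of flowering that PRC2 silences after cold. It had 1.45 and 2.17 FPKM in the labelled hd2b hd2c libraries, against 5.41 and 4.60 FPKM in wild type. The means differed 2.76-fold (log2 change −1.10, SE 0.18, limma adjusted p = 0.0350). FLC lies in the longest decile by span, and its call ended with the trend removed (log2 change −0.94, adjusted p = 0.112), with quantile normalization (0.0600), with no filter on low values (0.176) and without labelled hd2b hd2c library 1 (0.0570). The FPKM values carry no strand, so FLC transcripts and its antisense transcripts cannot be told apart in them. FT, the flowering signal gene that FLC represses, had 5.98 and 6.14 FPKM in the labelled hd2b hd2c libraries, against 3.89 and 3.68 FPKM in wild type. The groups were far apart for their spread, but FT did not pass (log2 change 0.56, SE 0.14, adjusted p = 0.116).

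The tested homeobox targets of shoot and root meristems are STM, KNAT1, KNAT2, KNAT6 and WOX5, grouped after their values were seen, and 0 were called. Their log2 changes were 0.39 for STM, 0.23 for KNAT1, 0.32 for KNAT2, 0.07 for KNAT6 and 0.59 for WOX5. STM, a homeobox gene that maintains the shoot meristem, had 4.01 and 3.85 FPKM in the labelled hd2b hd2c libraries, against 2.75 and 2.78 FPKM in wild type (adjusted p = 0.239). WOX5, which marks the organizing centre of the root meristem, had 2.63 and 3.05 FPKM in the labelled hd2b hd2c libraries, against 1.31 and 1.81 FPKM in wild type (SE 0.18, limma adjusted p = 0.166). For both genes the labelled hd2b hd2c libraries stood above both wild-type libraries. With the span trend removed the log2 change was 0.45 for STM and 0.45 for WOX5. SEP3, a floral homeotic gene, was high in 1 library, with 10.4 and 3.52 FPKM in the labelled hd2b hd2c libraries, against 4.65 and 3.83 FPKM in wild type (log2 change 0.46, adjusted p = 0.716; named after its values were seen). It passed when labelled hd2b hd2c library 2 was left out (log2 change 1.13, adjusted p = 0.0266), which rests on library 1.

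Markers of tissues and stages differed between the libraries as well. In whole seedlings fewer cells of a type and less RNA per cell cannot be told apart. Of 9 genes of dividing cells, all 9 lay above 0 and 0 were called, beside 0.608% of all tested loci called higher. Their median log2 change was 0.37, or 0.29 with the span trend removed. Their summed level was 260 and 313 FPKM in the labelled hd2b hd2c libraries, against 210 and 226 FPKM in wild type. MSI1, MSI2, STM and WOX5 have changes in that direction, and the part of dividing cells in them was not tested. Summed over 10 seed genes the level was 165 and 278 FPKM in the labelled hd2b hd2c libraries, against 7.19 and 29.7 FPKM in wild type. SESA1, SESA2, SESA4 and EM1 reached the filter in the labelled hd2b hd2c libraries alone and so had to differ. Outside these 4, CRA1, CRC, OLEO1, OLEO2 and EM6 lay above 0 without passing (limma adjusted p from 0.117 for OLEO2 to 0.422 for EM6). OLEO4, an oleosin gene named after its values were seen, had 5.61 and 7.50 FPKM in the labelled hd2b hd2c libraries, against 2.38 and 2.73 FPKM in wild type. It passed the test (log2 change 1.08, limma adjusted p = 0.0311). That call ended without the filter on low values (adjusted p = 0.170), without labelled hd2b hd2c library 2 (0.0701), and with the span trend removed and the replicate number as a block (0.0573). Summed root markers were 133 and 88.3 FPKM in the labelled hd2b hd2c libraries, against 66.3 and 90.7 FPKM in wild type, so labelled hd2b hd2c library 1, the library high in SEP3, was also the highest in root genes. Green tissue markers summed to 29133 and 36807 FPKM in the labelled hd2b hd2c libraries, against 36601 and 34625 FPKM in wild type, and were lowest in the same library. The part of tissue makeup in the SEP3 value was not tested.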

How the data were processed

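The authors deposited 1 table of FPKM, with 1 column per library, per the file headers. The mutant columns are headed by the letters b and c and a number, with the genotype not spelled out. RNA was extracted with Trizol and libraries were made with a TruSeq kit, per the labels' protocols. TopHat, Bowtie2, bedtools and the build TAIR10 are listed in the submitters' processing notes without a role. Which program computed FPKM, and how shared reads were treated, is not given in the sources used here. FPKM sums differed between columns, and depth is unknown.

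A locus was tested where 2 or more libraries reached 1 FPKM (19917 of 33278 loci) with limma (version 3.58.1, R 4.3.3) on log2(FPKM + 1), with a trend, robust moderation and genotype as the term. Two-sided p-values received a Benjamini-Hochberg adjustment over all tested loci. Fold changes on this scale understate those of low genes. The fit was tested on simulated data. Shares of paralogs were tested by exact permutation over libraries. Gene span and symbols came from a RefSeq table of TAIR10.1, which matched 98.6% of loci. Names differing from it follow common usage. The 10 genes and all lists were chosen with earlier results of these data known. Named genes are the 10, HD2B and HD2C, and from each list those past the threshold and the 3 with the smallest p, of which the text gives part; any other was named after its values were seen.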

Additional observations from a re-analysis of the deposited data

How the results depend on the processing

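Under all 13 alternative fits, 0 of the 10 Polycomb genes were called higher and 0 lower. The lowest adjusted p of any of them was 0.162, for SWN with the replicate number as a block; the labels share only a number between genotypes, and same-numbered deviations correlated at 0.168 over tested loci. The sign of the change was kept under every alternative for SWN, LHP1, BMI1A, MSI1 and RING1A. It turned for CLF with the gene span trend removed (0.043, and 0.043 with the block), for EMF2 (−0.047) and VRN2 (−0.020) with columns scaled to equal sums without rRNA loci, and when single libraries were left out for EMF2 (−0.072 to 0.075), VRN2 (−0.056 to 0.11), FIE (−0.31 to 0.12) and BMI1B (−0.059 to 0.21); none of these values passed. Leaving out libraries also turned HD2C (−0.10 to 0.31), MSI2 (−0.039 to 0.49), RING1B (−0.18 to 0.29), VRN1 (−0.0026 to 0.22), VRN5 (−0.077 to 0.15, and −0.0097 with equal sums), TRB2 (−0.25 to 0.051) and SEP3 (−0.21 to 1.13), and the span trend removal turned ICU2 (0.057, also with the block). The median of the 10 genes moved to 0.073 with the span trend removed, with or without the block. The EMF2 share differed by −2.67 to 1.67 percentage points when libraries were left out, turning without wild-type library 2.

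Calls over all loci numbered 121 higher and 110 lower, 19 and 20 without the low-value filter, 287 and 249 with equal sums without rRNA loci, 260 and 172 with the replicate block, 70 higher with the span trend removed, and 56 and 70 with the block as well. Leaving out single libraries gave 147 to 364 higher, with 364 without wild-type library 2 and 271 without labelled hd2b hd2c library 1. In the related lists, 0 to 1 were called higher and 0 to 1 lower when libraries were left out, and 0 lower with no filter, quantile normalization or the span trend removed, with or without the block. A library left out leaves its genotype with 1 library, assumed to vary like the others. The causes of these differences were not tested. With 2 libraries per genotype and no counts, changes smaller than the intervals given could not be resolved.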
